A study of Mus musculus with 4 samples.

Results

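The 10 genes described here encode the cytosolic chaperonin CCT, also called TRiC, and its partner prefoldin, and were taken by symbol from the deposited FPKM (fragments per kilobase of transcript, scaled for sequencing depth) of 23284 gene symbols. All 10 symbols were found: the 8 CCT subunit genes Tcp1, Cct2, Cct3, Cct4, Cct5, Cct6a, Cct7 and Cct8, and the prefoldin subunit genes Pfdn2 and Pfdn4. RNA had been sequenced from EGFP+ cells sorted out of the marrow of wild-type mice 24 h after each had received 100000 LSK cells, the Lin- Sca1+ c-Kit+ marrow fraction that holds stem and progenitor cells. The donors were CAG-EGFP mice, in which the broadly active CAG promoter drives EGFP, so EGFP is not tied to a cell type. Whether every EGFP+ cell came from the donor was not tested. The tested recipients had been given 5-fluorouracil (5-FU, a pyrimidine analog that kills dividing cells) intravenously at 200 mg/kg, 2 days before the transplant. The control recipients were not treated, and both groups received the same kind of donor cells. There were 2 recipients, and so 2 libraries, in each group. The sources used here state no ages.

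CCT is a double ring chamber in which newly made proteins fold with the help of ATP, and each ring holds 1 copy of each of 8 related subunits. Around the ring the subunits encoded by Tcp1, Cct3, Cct6a, Cct8, Cct7, Cct5, Cct2 and Cct4 follow each other in that order. Prefoldin is a jellyfish-shaped complex without ATPase activity that catches unfolded actin and tubulin and hands them to CCT. Its subunits fall into an alpha class, Vbp1 (prefoldin 3) and Pfdn5, and a beta class, Pfdn1, Pfdn2, Pfdn4 and Pfdn6. Dividing cells make much of the actin, tubulin and WD-repeat proteins that depend on this pathway, among them Cdc20, an activator of the anaphase-promoting complex.

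Summed over all genes, FPKM came to 678270 and 762107 in 5-FU recipients, against 680412 and 678222 in control recipients. Transcripts of other cells were present beside those of stem and progenitor cells. The summed FPKM of 15 macrophage markers was 20905 and 10832 in 5-FU recipients 1 and 2, against 23923 and 28030 in control recipients 1 and 2, and none of them was at 0. Of 14 stem and progenitor markers, Kit and Cd34 among them, none was at 0 and the sums were 774 and 1031 in 5-FU recipients and 919 and 840 in control recipients. Fewer cells of a type and less RNA per cell cannot be told apart in such bulk libraries.

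All 8 CCT subunit transcripts were higher in cells from 5-FU-treated recipients, by 0.94 to 1.35 on the log2 scale. The median of the 8 was 1.27, against -0.01 over all 11496 tested genes. All 8 passed the threshold (limma adjusted p of 0.0119 to 0.0400, two-sided), where 8.23% of tested genes were called higher. In each of the 8 both 5-FU libraries lay above both control libraries, an arrangement found in 31.4% of tested genes. The prefoldin genes Pfdn2 and Pfdn4 had log2 fold changes of 0.85 and 0.80, and neither passed.

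**Figure D1:**
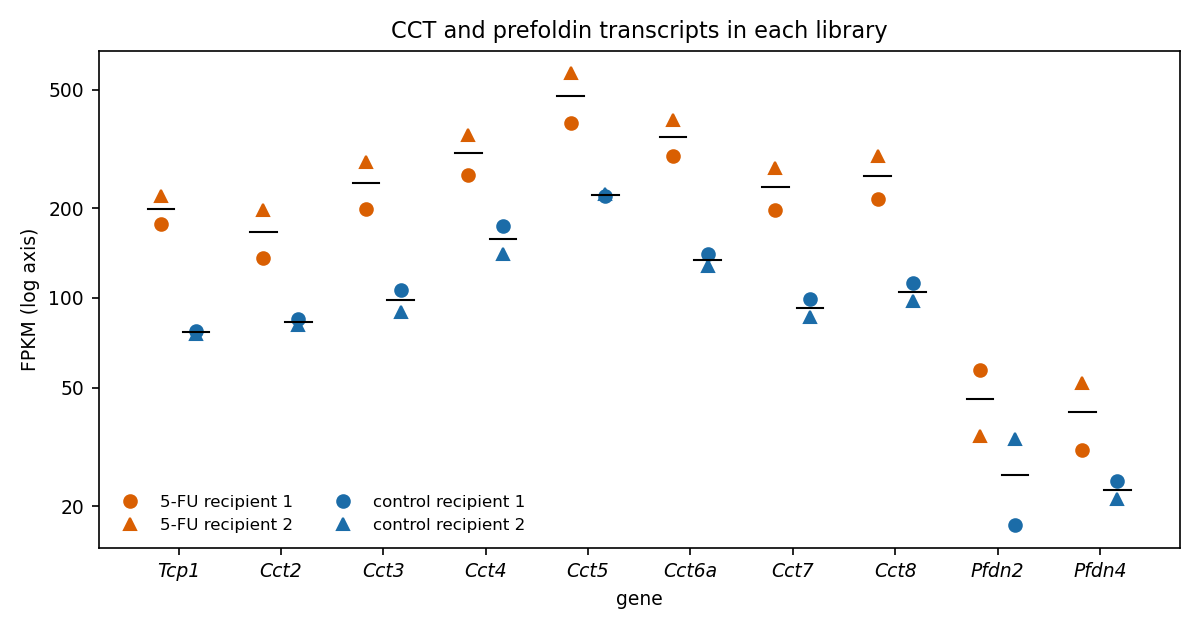
FPKM of the 10 genes in each library (log axis), 5-FU recipients in orange left of control recipients in blue, with circles for recipient 1, triangles for recipient 2 and lines at the group means. The 8 CCT genes sit apart by group, whereas Pfdn2 in 5-FU recipient 2, at 34.4, lies close to control recipient 2, at 33.6.

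The subunit genes with the larger fold changes were Tcp1, Cct6a, Cct7, Cct3 and Cct8. Tcp1 encodes CCT alpha and lies on chromosome 17 at 12916329 to 12925067 (positions of genes are RefSeq, GRCm38.p6). It had 177 and 219 FPKM in 5-FU recipients, against 77.4 and 76.0 FPKM in control recipients, a log2 fold change of 1.35 (SE 0.20, limma adjusted p = 0.0119). The lower 5-FU library was 2.29 times the higher control library, the widest gap of the 10 genes. Cct6a, CCT zeta, on chromosome 5 at 129787356 to 129846443, had 299 and 395 FPKM in 5-FU recipients, against 140.4 and 128 FPKM in control recipients (log2 fold change 1.35, SE 0.22, limma adjusted p = 0.0145). Cct7, CCT eta, on chromosome 6 at 85451505 to 85468477, had 197 and 273 FPKM in 5-FU recipients, against 98.8 and 86.6 FPKM in control recipients (log2 fold change 1.32, SE 0.22, limma adjusted p = 0.0162). In both genes the groups were well apart, the lower 5-FU library being 2.13 times the higher control library for Cct6a and 1.99 times for Cct7. Cct3, CCT gamma, on chromosome 3 at 88297135 to 88321766, had 199 and 286 FPKM in 5-FU recipients, against 107 and 89.98 FPKM in control recipients (log2 fold change 1.28, SE 0.23, limma adjusted p = 0.0187). Cct8, CCT theta, on chromosome 16 at 87483325 to 87495869, had 215 and 299 FPKM in 5-FU recipients, against 112 and 97.8 FPKM in control recipients (log2 fold change 1.27, SE 0.23, limma adjusted p = 0.0175). For these genes the groups were separate, and 5-FU recipient 2 was the higher of the 5-FU libraries.

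Smaller fold changes were found for Cct5, Cct2 and Cct4. Cct5, CCT epsilon, on chromosome 15 at 31590800 to 31601846, had the highest level of the 10 genes in every library. It stood at 386 and 566 FPKM in 5-FU recipients, against 219 and 223 FPKM in control recipients (log2 fold change 1.08, SE 0.24, limma adjusted p = 0.0298). Cct2, CCT beta, on chromosome 10 at 117050997 to 117063852, had 136 and 197 FPKM in 5-FU recipients, against 85.2 and 81.2 FPKM in control recipients (log2 fold change 0.97, SE 0.23, limma adjusted p = 0.0337). Cct4, CCT delta, on chromosome 11 at 22990593 to 23003336, had 259 and 353 FPKM in 5-FU recipients, against 175 and 141 FPKM in control recipients (log2 fold change 0.94, SE 0.23, limma adjusted p = 0.0400). Its gap was the narrowest of the CCT genes, with the lower 5-FU library 1.48 times the higher control library. The fold changes of the 8 genes ran from 0.94 to 1.35, with standard errors of 0.20 to 0.24, and differences between them were not tested.

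The calls were not kept when either control library was left out, whereas the fold changes stayed positive. Without control recipient 1 or control recipient 2 none of the 8 genes passed in limma, although the median was 1.36 and 1.16 and the unadjusted p was under 0.05 for 8 and 7 of them. With no filter on low values none of the 8 passed either, at limma adjusted p of 0.0822 to 0.120, with all 8 at an unadjusted p under 0.05. In 5-FU recipient 2 all 8 CCT genes were 1.23 to 1.47 times as high as in 5-FU recipient 1, and the macrophage marker sum was 10832 against 20905 FPKM. Summed over the 8 genes, CCT transcripts reached 1868 and 2589 FPKM in 5-FU recipients 1 and 2. In control recipients 1 and 2 the CCT sum was 1014 and 923 FPKM. The FPKM of all genes also summed higher in 5-FU recipient 2, at 762107 against 678270 in 5-FU recipient 1. As a percentage of that total, the CCT sum was 0.275% and 0.340% in 5-FU recipients, against 0.149% and 0.136% in control recipients. The library with the higher CCT sum thus had the lower macrophage sum in each group, and across all 4 libraries the order of one sum was the reverse of the order of the other. The part of macrophage content in the CCT result was not tested. Proliferation markers moved in the same direction as CCT. Of the 10, which include Mki67 and Top2a, 9 rose, where 8.23% of all tested genes were called higher. With no filter on low values 3 genes were called higher in all, so most of the 9 calls were not kept. The sum of the 10 was 835 and 1086 FPKM in 5-FU recipients against 322.1 and 321.7 FPKM in control recipients. Across all 4 libraries the proliferation sum had the same order as the CCT sum, with nearly equal values in the control recipients. The part of proliferation in the CCT result was not tested either.

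The order of the subunit transcripts differed between the groups at a pair of places, and 7 of the 8 shares did not overlap between them. In FPKM, both 5-FU libraries lay above both control libraries in 31.4% of tested genes and below them in 30.7%. Non-overlap is thus common with so few libraries, and the shares, being parts of the same sum, are not independent of each other. Within a library the highest CCT gene, Cct5, was 2.83 and 2.87 times the lowest in 5-FU recipients and 2.83 and 2.93 times in control recipients, the lowest being Cct2 in 5-FU recipients and Tcp1 in control recipients. From low to high the order was Cct2, Tcp1, Cct7, Cct3, Cct8, Cct4, Cct6a and Cct5 in both 5-FU libraries. In both control libraries it was Tcp1, Cct2, Cct7, Cct3, Cct8, Cct6a, Cct4 and Cct5, so that Tcp1 and Cct2 changed places, and so did Cct4 and Cct6a. Neighbours in this order were often close. Cct7 and Cct3 had 197 and 199 FPKM in 5-FU recipient 1, and Tcp1 and Cct2 had 76.0 and 81.2 FPKM in control recipient 2. All 8 genes were highly expressed, between the 93.3 and 98.2 percentile of tested genes in 5-FU libraries and between the 88.5 and 96.2 percentile in control libraries.

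As a share of the summed FPKM of the 8 genes, Cct4 made up 13.8% and 13.6% in 5-FU recipients, against 17.2% and 15.3% in control recipients. Cct2 made up 7.30% and 7.62% in 5-FU recipients, against 8.40% and 8.80% in control recipients. For these subunits each 5-FU share lay below each control share. Cct6a showed the reverse, as did Tcp1, Cct3, Cct7 and Cct8, with 15.99% and 15.3% in 5-FU recipients and 13.8% and 13.9% in control recipients for Cct6a. For Cct5 the shares overlapped, at 20.7% and 21.9% in 5-FU recipients and 21.6% and 24.1% in control recipients. The coefficient of variation over the 8 subunits was 33.8% and 36.3% in 5-FU recipients, against 38.4% and 42.5% in control recipients. The shares and their spread are given as a description, with no test. The exact permutation test for a single value cannot go below p = 0.333 with 2 against 2 libraries.

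**Figure D2:**
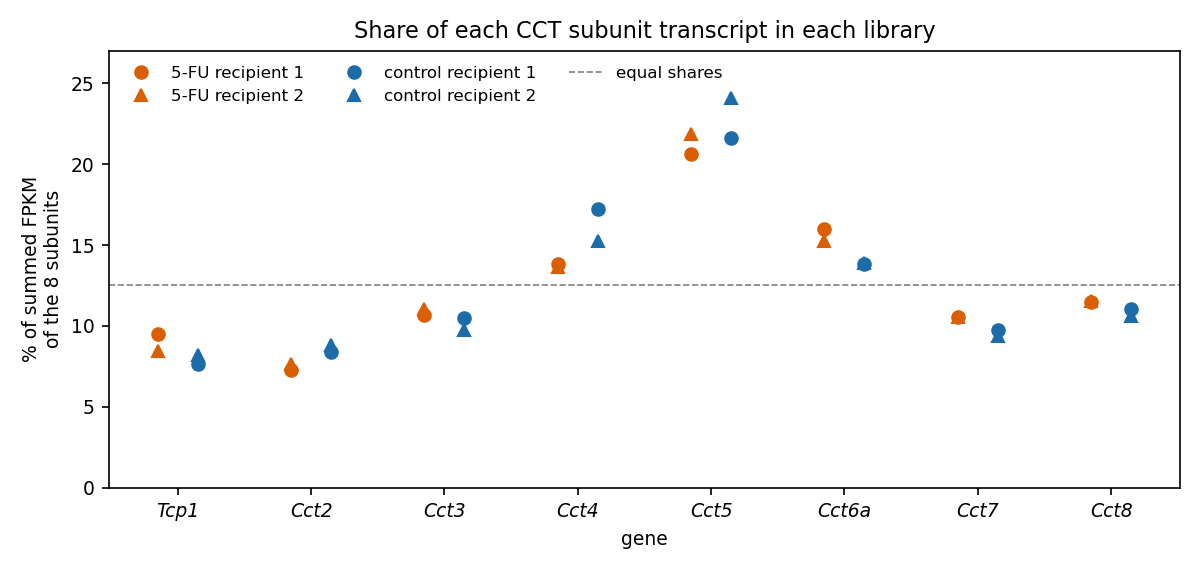
Share of each CCT gene in the summed FPKM of the 8 genes, in percent, for each library, 5-FU recipients in orange left of control recipients in blue. Shares of Cct4 lie at 13.6% to 13.8% in 5-FU recipients and 15.3% to 17.2% in control recipients, and Cct5 holds the largest share in all 4 libraries.

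The prefoldin members were lower in level than the CCT genes and more uneven between the 5-FU libraries. Between the control libraries Pfdn4 differed by 1.15 times, less than Cct4 at 1.24 times. Pfdn2, a beta subunit gene on chromosome 1 at 171344954 to 171359254, had 57.4 and 34.4 FPKM in 5-FU recipients, against 17.3 and 33.6 FPKM in control recipients (log2 fold change 0.85, SE 0.36, limma adjusted p = 0.148). The control libraries differed by 1.94 times, and the lower 5-FU library was 1.02 times the higher control library. Pfdn4, also a beta subunit gene, on chromosome 2 at 170496428 to 170519070, had 31.0 and 52.0 FPKM in 5-FU recipients, against 24.4 and 21.1 FPKM in control recipients (log2 fold change 0.80, SE 0.27, limma adjusted p = 0.0923). Both had an unadjusted p under 0.05 (0.0444 and 0.0204). Pfdn2 passed without 5-FU recipient 2, at a log2 fold change of 1.22 (limma adjusted p = 0.0280), and Pfdn4 passed without 5-FU recipient 1, at 1.16 (limma adjusted p = 0.00193). Each thus depends on which 5-FU library is kept.

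Of the 4 other prefoldin subunits, the beta subunit genes Pfdn6 and Pfdn1 rose, and the alpha subunit genes Vbp1 and Pfdn5 did not pass. Among all tested genes 8.23% were called higher. Pfdn6, listed in the files under the older symbol H2-Ke2, had 162 and 187 FPKM in 5-FU recipients, against 64.5 and 83.2 FPKM in control recipients (log2 fold change 1.24, SE 0.21, limma adjusted p = 0.0160). Pfdn1 had 73.6 and 79.9 FPKM in 5-FU recipients, against 46.9 and 43.4 FPKM in control recipients (log2 fold change 0.75, SE 0.19, limma adjusted p = 0.0400). In both genes each 5-FU value lay above each control value, an arrangement found in 31.4% of tested genes. Of these 2 calls 1 was left under TPM scaling, quantile normalization, no trend or the replicate block, and 0 with no filter on low values or without either control library. Pfdn5, known in human cells also as the MYC-binding protein MM-1, was the most abundant prefoldin transcript, with 236 and 268 FPKM in 5-FU recipients, against 334 and 285 FPKM in control recipients (log2 fold change -0.29, SE 0.21, limma adjusted p = 0.366). Each 5-FU value of Pfdn5 lay below each control value, as in 30.7% of tested genes. Vbp1 had 49.5 and 88.2 FPKM in 5-FU recipients, against 46.9 and 54.1 FPKM in control recipients, and its groups overlapped (limma adjusted p = 0.387). Whether the alpha and beta classes differ in fold change was not tested.

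**Figure D3:**
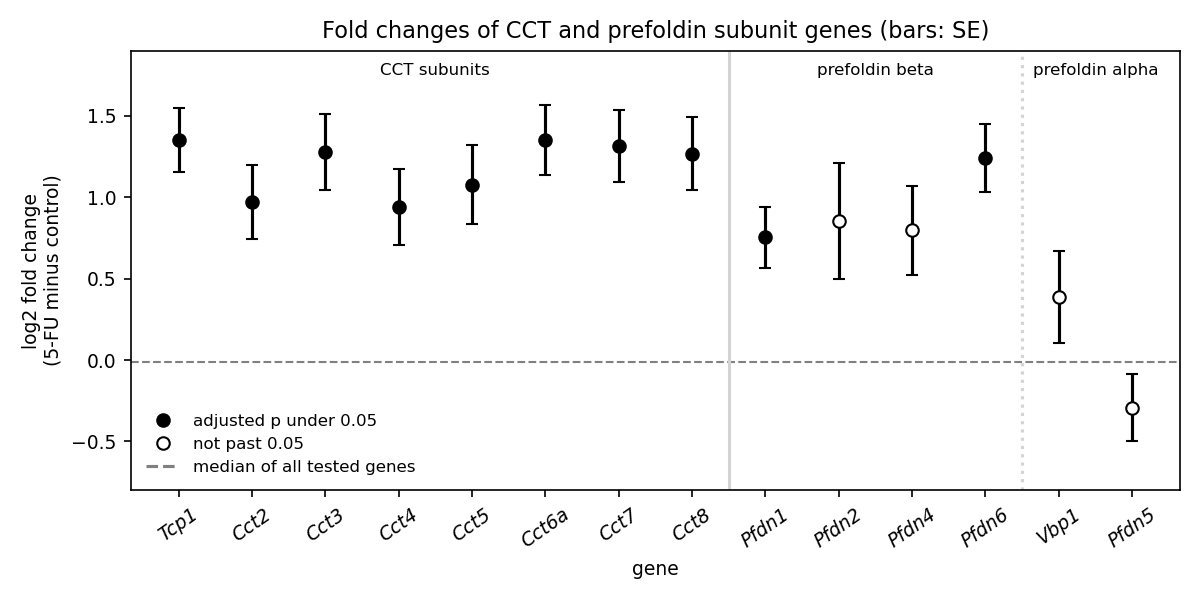
Log2 fold change, 5-FU minus control, with SE bars, for the 8 CCT genes and the 6 prefoldin genes, filled where the limma adjusted p was under 0.05 and with a dashed line at the median of all tested genes. The CCT genes lie between 0.94 and 1.35, and the alpha subunit genes Vbp1 and Pfdn5 lie at 0.39 and -0.29.

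Promoter sequence was matched in RefSeq (GRCm38.p6) for 9 of the 10 genes, as windows from 250 bases before to 50 after the gene start. The 4 windows that hold a CCAAT box, the site known to bind NF-Y, are printed. They were chosen after the fold changes were seen, as their genes, Tcp1, Cct6a, Cct7 and Cct3, had the 4 highest of the members. Cct8, at a nearly equal 1.27, has no such box in its window, and no window was matched for Cct4. A link between this box and the fold changes was not tested. The printed windows are 5′ to 3′ on the plus strand at chr17:12916079-12916378 for Tcp1, chr3:88296885-88297184 for Cct3, chr5:129787106-129787405 for Cct6a and chr6:85451255-85451554 for Cct7. Capitals mark every match, on either strand, to the motifs searched.
Tcp1: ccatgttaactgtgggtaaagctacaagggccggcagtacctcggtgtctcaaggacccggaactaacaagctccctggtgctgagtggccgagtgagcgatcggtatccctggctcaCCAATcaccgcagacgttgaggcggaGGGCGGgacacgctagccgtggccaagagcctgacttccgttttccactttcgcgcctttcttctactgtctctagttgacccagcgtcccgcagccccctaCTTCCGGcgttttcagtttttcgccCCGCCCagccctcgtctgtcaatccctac
Cct3: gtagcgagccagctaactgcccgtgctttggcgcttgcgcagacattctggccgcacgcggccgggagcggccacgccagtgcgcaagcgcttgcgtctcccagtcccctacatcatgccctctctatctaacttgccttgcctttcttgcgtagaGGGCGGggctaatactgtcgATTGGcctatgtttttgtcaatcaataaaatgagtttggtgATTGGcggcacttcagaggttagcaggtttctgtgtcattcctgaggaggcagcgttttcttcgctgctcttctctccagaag
Cct6a: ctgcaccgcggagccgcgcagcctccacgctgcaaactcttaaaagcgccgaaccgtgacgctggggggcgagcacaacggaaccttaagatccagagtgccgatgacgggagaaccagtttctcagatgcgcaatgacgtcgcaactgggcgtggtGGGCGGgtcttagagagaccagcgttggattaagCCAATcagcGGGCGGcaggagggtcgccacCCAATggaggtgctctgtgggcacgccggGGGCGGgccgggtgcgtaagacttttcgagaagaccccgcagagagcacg
Cct7: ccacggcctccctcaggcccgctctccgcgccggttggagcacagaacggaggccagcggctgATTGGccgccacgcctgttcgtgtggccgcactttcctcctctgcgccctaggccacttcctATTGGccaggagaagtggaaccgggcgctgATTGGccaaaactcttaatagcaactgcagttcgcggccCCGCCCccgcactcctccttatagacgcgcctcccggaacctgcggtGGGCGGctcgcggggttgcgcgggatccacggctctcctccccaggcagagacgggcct
The motifs were CCAAT, the GC box GGGCGG, the E-box CACGTG, the paired heat shock unit GAANNTTC, the ETS site CCGGAAG and the NRF1 consensus of 10 bases. Matches of different motifs do not overlap in these 4 windows. CCAAT stood in 4 of the 9 member promoters and in 37.4% of all 32851 promoter windows of that length. Cct7 had 3 matches to it, Cct3 and Cct6a had 2 each and Tcp1 had 1. GC boxes stood in 8 of the 9, against 35.7% of all windows, and the ETS site in 4, against 8.86%. The NRF1 site stood in 1, that of Cct5, against 0.971% of all windows. Neither the E-box, in 7.15% of all windows, nor the heat shock unit, in 7.86%, had a match in these windows. Cct2, Cct5 and Pfdn2 each have a further window that is not in these counts, and those of Cct2 and Pfdn2 hold 2 GC boxes each. The further window of Cct2 also holds 1 heat shock unit. Pfdn2 is the member counted without a GC box. Such matches are letters in a window and not shown to be sites.

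Several members share their start region with a gene on the opposite strand. Mrpl18, which encodes a mitochondrial ribosomal protein, starts head to head with Tcp1 and shares 141 exon bases with it in GENCODE M21. It had 194 and 274 FPKM in 5-FU recipients, against 106 and 96.1 FPKM in control recipients. Psph, phosphoserine phosphatase of serine synthesis, is head to head with Cct6a with 452 shared exon bases and had 34.2 and 31.6 FPKM in 5-FU recipients, against 20.3 and 17.7 FPKM in control recipients. For both partners each 5-FU value was above each control value, as for Tcp1 and Cct6a and for 31.4% of tested genes. Nit1, head to head with Pfdn2, had 15.2 and 8.26 FPKM in 5-FU recipients, against 14.0 and 18.6 FPKM in control recipients, so its groups overlapped. Fam173b, head to head with Cct5 at 48 bases, had 15.5 and 10.1 FPKM in 5-FU recipients, against 17.0 and 16.7 FPKM in control recipients, lower where Cct5 was higher. Each 5-FU value lay below each control value in 30.7% of tested genes. B130034C11Rik, head to head with Cct8, was at 0.941 FPKM or less in every library. Cyp24a1, head to head with Pfdn4 with 83 shared exon bases, was at 0.258 FPKM or less. Exon bases on the opposite strand are also shared by Tcp1 with Acat3 (571), Cct7 with Pradc1 (214) and Cct8 with Usp16 (192). They are shared too by Pfdn2 with Klhdc9 (535) and Pfdn4 with Gm16796 (639). Reads in all these shared bases cannot be told apart without strand. Acat3 had 32.7 and 45.9 FPKM in 5-FU recipients, against 16.9 and 14.1 FPKM in control recipients. Usp16 had 19.9 and 25.6 FPKM, against 12.8 and 10.7 FPKM. For both each 5-FU value was above each control value, as in 31.4% of tested genes. The groups of Klhdc9 overlapped, and Gm16796 was at 0 in every library. Pradc1 and Tsacc, head to head with Cct7 and Cct3, had no values. Look-alike transcripts, with at least 95% identity over at least 75 nt, were found for Cct7 alone, in the pseudogene Gm5380.

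The genes whose pattern over the 4 libraries lay nearest to the mean CCT pattern, among 6192 genes with a mean of at least 10 FPKM, were Bola2, Mrpl18, Nup85, Adsl, Srsf1 and Eif3g. Their distances from it were 0.03 to 0.06 on the log2 scale, small because these genes were picked as the nearest. The CCT genes, which were not picked by distance, lay at 0.08 (Cct8) to 0.28 (Cct4), so the ranges cannot be compared. Pfdn4 lay at 0.44 and Pfdn2 at 1.17. Adsl, adenylosuccinate lyase of purine synthesis, had 78.9 and 108 FPKM in 5-FU recipients, against 42.2 and 37.0 FPKM in control recipients. Eif3g, a subunit of a translation initiation factor, had 231 and 318 FPKM in 5-FU recipients, against 123 and 107 FPKM in control recipients. With 4 libraries, nearness says only that these genes shared the same order and sizes of values. Mrpl18 shares 141 exon bases with Tcp1, so its values may not be independent of the mean CCT pattern.

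None of the tested regulators of CCT and tubulin cofactors passed the threshold. Of 5 CCT regulators and paralogs 3 were tested and none passed, and their median log2 fold change was -0.12. Among them Pdcl, a phosducin-like protein that assists G beta folding, had 16.8 and 17.3 FPKM in 5-FU recipients, against 25.8 and 19.8 FPKM in control recipients (limma adjusted p = 0.285). Cct6b, the testis paralog of Cct6a, was at 0.409 FPKM or less in every library. The 7 tubulin cofactors, which assemble the tubulin dimer after CCT, had a median of -0.01 and none passed. Tbca, which receives beta tubulin, had 242 and 325 FPKM in 5-FU recipients, against 246.3 and 245.9 FPKM in control recipients (limma adjusted p = 0.601). Neither list had a member with an unadjusted p under 0.05. In the prefoldin-like R2TP module, which assembles large complexes with HSP90, 2 of 10 rose, where 8.23% of all tested genes were called higher. These were the AAA+ ATPase genes Ruvbl2, at 108 and 140 FPKM in 5-FU recipients against 35.8 and 30.5 FPKM in control recipients (log2 fold change 1.86, SE 0.21), and Ruvbl1 (1.39, SE 0.27). Its other 8 members were positive and did not pass, and the module's median was 0.59. With no filter on low values 0 of the module rose, and with no trend 1 rose.

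Among the clients of CCT, 6 tubulins rose and no actin passed, where 8.23% of all tested genes were called higher. The list of actins and tubulins had 14 tested genes, of which 8 did not pass and none fell, and its median was 0.18. Tubb2a, picked out after its values were seen, came close in the other direction, with 16.6 and 17.1 FPKM in 5-FU recipients, against 27.4 and 31.7 FPKM in control recipients (log2 fold change -0.77, SE 0.21, limma adjusted p = 0.0521). Under 6 of the alternatives 1 gene of this list was called lower, namely the filter of 5 FPKM, TPM scaling, quantile normalization, robust eBayes and leaving out either 5-FU library. Without either control library, or with no filter on low values, none of the 6 tubulin calls was left. Tubb5, a beta tubulin, had 241 and 353 FPKM in 5-FU recipients, against 94.8 and 96.8 FPKM in control recipients (log2 fold change 1.60, SE 0.23, limma adjusted p = 0.0119). Tubb4b and Tuba1b rose by 1.50 and 1.36. The other 3 that rose were Tubb6, Tuba4a and Tubg1, the gamma tubulin of the centrosome, picked out after their values were seen. Actb, also picked out in that way, had 1345 and 1572 FPKM in 5-FU recipients, against 1600 and 1649 FPKM in control recipients (limma adjusted p = 0.727). Actin and tubulin genes share long stretches of sequence, which leaves the level of any single copy uncertain. Of 17 WD-repeat and other clients 3 rose, none fell and 14 did not pass, with a median of 0.38. The 3 were Plk1, a mitotic kinase, at 2.02, Cdc20 at 1.70 and Strap, a WD-repeat protein of mRNA complexes, at 0.84. Cdc20 had 40.8 and 58.3 FPKM in 5-FU recipients, against 12.8 and 16.0 FPKM in control recipients.

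Other chaperones of the cytosol and of mitochondria rose in part, and those of the endoplasmic reticulum did not. In the cytosolic HSP70 and HSP90 system 12 of the 29 genes tested rose and none fell, while 17 did not pass, and the median was 0.68. Fkbp4, an HSP90 co-chaperone, had 161 and 157 FPKM in 5-FU recipients, against 50.03 and 45.6 FPKM in control recipients (log2 fold change 1.71, SE 0.18, limma adjusted p = 0.00648). Hsph1, an exchange factor of HSP70, and Stip1, which links HSP70 to HSP90, rose by 1.88 and 1.50. Of 6 ribosome-bound chaperones 3 rose, Dnajc2 by 1.24, Hypk by 0.96 and Hspa14 by 0.88, and the list's median was 0.84. Of 9 mitochondrial chaperones 3 rose, namely Hspe1, Hspd1 and Hspa9, with a list median of 0.71. Hspa9, mitochondrial HSP70, had 204 and 220 FPKM in 5-FU recipients, against 95.6 and 99.9 FPKM in control recipients. Of 16 chaperones of the endoplasmic reticulum none rose and 2 fell, with a median of -0.23. They were the unfolded protein response genes Dnajb9, at 14.8 and 13.3 FPKM in 5-FU recipients against 27.8 and 27.7 FPKM in control recipients (log2 fold change -0.93, SE 0.21), and Dnajc3 (-0.72, SE 0.19). Across these 10 related lists 31 of 115 tested genes rose and 2 fell, where 8.23% of all tested genes were called higher and 4.67% lower. Without control recipient 1 or control recipient 2, 3 and 4 of them rose, and without 5-FU recipient 1 the number was 54. With no filter on low values 0 rose and 0 fell, and with no trend 19 rose and 0 fell.

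**Figure D4:**
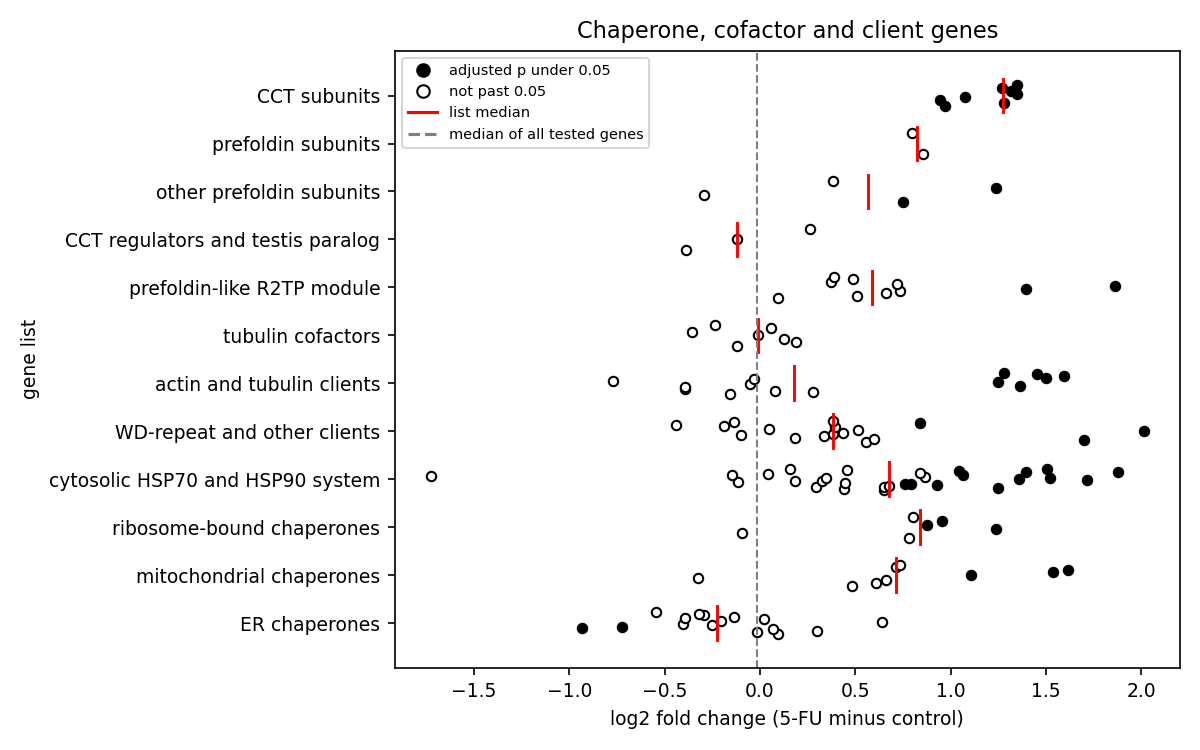
Log2 fold change, 5-FU minus control, of each tested gene in the CCT, prefoldin and 10 related lists, filled where the limma adjusted p was under 0.05, with list medians in red. The CCT genes form a tight group around 1.27, tubulin cofactors around -0.01 and chaperones of the endoplasmic reticulum around -0.23.

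In 4 lists of markers of other lineages some genes fell and none rose, where 4.67% of all tested genes were called lower. Of 15 macrophage markers 3 fell and 12 did not pass, with a median of -0.95. Marco, a scavenger receptor picked out after its values were seen, did not pass, at 27.5 and 14.5 FPKM in 5-FU recipients against 13.8 and 9.51 FPKM in control recipients (log2 fold change 0.75, limma adjusted p = 0.177). Of 10 granulocyte markers 6 fell, with summed FPKM of 3790 and 3580 in 5-FU recipients against 12702 and 10139 in control recipients. Of 8 tested erythroid markers 7 fell, with sums of 76.2 and 126 FPKM in 5-FU recipients against 1287 and 1797 FPKM in control recipients, and Alas2 was listed at 0 in 1 of the 5-FU libraries. Of 8 tested B cell markers 5 fell, with sums of 201 and 158 FPKM in 5-FU recipients against 365 and 372 FPKM in control recipients, and Vpreb3, Igll1 and Pax5 were each listed at 0 in some library. In the list of dissociation and handling genes 6 of 10 fell, with a median of -1.28. With no filter on low values 4 genes were called lower in all, so most of the lower calls in these lists were not kept. Stem and progenitor markers had a median of 0.18, with 1 of 13 tested rising, where 8.23% of all tested genes were called higher. The part of these lists in the results for CCT, prefoldin, client and chaperone genes was not tested.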

How the data were processed

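RNA was measured in 4 libraries, 2 from 5-FU recipients and 2 from control recipients, from EGFP+ cells sorted again from each recipient after separation on Lymphoprep. Per the labels' protocols, a SMART-Seq Ultra Low Input kit gave the cDNA, which was sequenced as single reads of 75 bp. The submitters' processing notes name mm10 and the tools TopHat2 2.0.13, Bowtie2 2.2.3, SAMtools 0.1.19 and Cuffnorm 2.2.1. The authors deposited FPKM, which Cuffnorm scales for transcript length and depth. The sources used here give neither its library setting nor the annotation. The column headers of the 5-FU libraries name day 3 and their file names day 2, and groups follow the labels.

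The deposited FPKM were used as log2(FPKM + 1), so fold changes of low genes are understated. The fit, in limma 3.58.1 under R 4.3.3, kept genes that reached 1 FPKM in 2 or more libraries (two-sided, eBayes with its trend option, Benjamini-Hochberg over 11496 genes, threshold 0.05), with 2 residual and 5.62 prior degrees of freedom. The script was tested on simulated data. Read depth is unknown. The commonest ratio of values below 0.3 FPKM put 1 read at 1.07 times its FPKM in 5-FU recipient 2 for 5-FU recipient 1, and at 1.31 and 1.26 times for control recipients 1 and 2, so control values carry more counting error. The labels call the replicates biological, from separate recipients, and do not say whether donor cells were pooled.

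The members and lists were chosen with earlier results of these data known, so their counts are no independent support. Of the list entries 202 matched by symbol, 5 through RefSeq synonyms and 1 not at all. Named genes are the members, the 3 genes of smallest p in each related list (not all described), and the 6 nearest profiles by Euclidean distance of centred log2 values, with predicted and RNA genes left out. Other named genes were chosen after their values were seen. Look-alikes were searched with blastn 2.17.0 in GENCODE M21 transcripts (GRCm38). The alternatives were other pseudocounts, filters, scalings and eBayes settings, the replicate block and leaving out each library. Figures were drawn with matplotlib 3.10.9.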

Additional observations from a re-analysis of the deposited data

How the results depend on the processing

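In all 14 alternatives listed at the outset each of the 10 members kept a positive log2 fold change, from 0.71 to 1.55 in the CCT genes and from 0.40 to 1.31 in Pfdn2 and Pfdn4, and pseudocounts of 0.1 and 5, a filter of 5 FPKM, TPM, median-ratio and quantile scaling and robust eBayes left the 8 CCT calls in place, with 0 calls for Pfdn2 and Pfdn4. With no filter on low values limma called 3 genes higher and 4 lower in all and 0 CCT genes (adjusted p of 0.0822 to 0.120, 8 with an unadjusted p under 0.05). With no trend it called 548 higher and 299 lower in all and 5 CCT genes, without Cct2, Cct4 and Cct5. Leaving out 1 library gave 88 to 2122 genes higher and 38 to 1876 lower, 0 to 8 CCT calls, 0 to 1 prefoldin calls, CCT medians of 1.02 to 1.50 and prefoldin medians of 0.65 to 1.01. The lowest counts came without a control library and the highest without 5-FU recipient 1, where the lone library is assumed to vary like the other group. Among the CCT genes, Tcp1 had the lowest SE with all libraries, at 0.20, and Cct5 the highest, at 0.24. Without either control library these were 0.39 and 0.48, and without either 5-FU library 0.16 and 0.15. The cause of the shifts in the counts was not tested. The replicate numbers name no shared source and their deviations correlated at -0.16, so they were not taken as pairs. With the replicate block 855 genes were higher and 539 lower, 7 CCT genes passed, without Cct4 (adjusted p = 0.0645), and 0 prefoldin members. A crossed pairing, added after seeing the data, gave 1686 higher and 1365 lower genes, 8 CCT and 2 prefoldin calls. No outlier test was possible with 2 libraries a group.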
